A study of Medicago truncatula with 18 samples.

Results

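The *MtSOC1* genes of *Medicago truncatula* (Medicago) were described here across the leaf libraries of SD and LD plants. They are *MtSOC1a* (*Medtr7g075870*), *MtSOC1b* (*Medtr8g033250*) and *MtSOC1c* (*Medtr8g033220*), 3 of the 50444 genes quantified. These genes were picked by their identifiers and not by a rule on measured values, but earlier results of these data were known. By their identifiers *MtSOC1a* lies on chromosome 7 and the other two on chromosome 8, where they are next to each other in the order of loci, with no quantified gene between them. *SOC1* encodes a MADS-box transcription factor and is known as a floral integrator. In *Arabidopsis thaliana* the FT protein is made in leaves in inductive daylength, moves to the shoot apex and activates *SOC1* there, and *SOC1* in turn promotes the genes that give a meristem its floral identity. Temperate legumes carry several *SOC1* copies, and in Medicago their expression depends in part on *MtFTa1*, an *FT-like* gene. Loss of *MtSOC1a* delays flowering.

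The 18 libraries form 6 groups of 3 biological replicates of the cultivar Jester, and each library pools 2 first trifoliate leaves, which came from different plants. All plants grew from seed vernalised for 25 days at 4 °C and were kept at 22 °C, first in short days (SD, 8 h light and 16 h dark). LD plants were moved to long days (16 h light and 8 h dark) at an age of 10 days, while SD plants stayed in short days. Leaves taken at dawn (ZT0) and 2 h after dawn (ZT2) belong to experiment 1, with plants 13 days old and 3 days in LD, and leaves taken 4 h after dawn (ZT4) belong to experiment 2, with plants 15 days old and 5 days in LD. The library kit also differed between the experiments (ScriptSeq in the first, TruSeq Stranded mRNA in the second), so what sets ZT4 apart from the earlier timepoints (hour, age, time spent in LD or kit) cannot be told apart. SD and LD were compared within an experiment at every timepoint. Only leaf was sampled, and the shoot apex was not.

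Library totals ran from 18009808 to 19560647 estimated counts in experiment 1 and from 20690658 to 23201592 in experiment 2. The leaf identity of the libraries was checked with 6 markers, 5 genes of the Rubisco small chain and 1 chlorophyll a/b-binding gene, all of which were present in every library, at 149 to 52321 TPM, TPM being the share of transcripts that a gene takes in its library, a level corrected for gene length. In SD the summed level of these markers was 61758.5 to 69730 TPM at ZT0, 70357 to 82702 TPM at ZT2 and 68084 to 69824 TPM at ZT4. In LD it was higher, at 102146 to 112999 TPM at ZT0, 104155 to 111144 TPM at ZT2 and 95370 to 105801 TPM at ZT4. The markers thus moved with photoperiod, and their part in the results below was not tested. In libraries of whole leaves, fewer cells of a type and less RNA per cell cannot be told apart.

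*MtSOC1a* was the most abundant of the 3 genes in every library. In SD its level at ZT0 was 7.75, 6.17 and 9.37 TPM in replicates 1 to 3, with a mean ± standard deviation of 7.76 ± 1.60 TPM (n = 3). At ZT2 in SD it was 7.47, 7.61 and 5.61 TPM (6.89 ± 1.12 TPM, n = 3). At ZT4 in SD it was 7.09, 6.11 and 6.13 TPM (6.45 ± 0.563 TPM, n = 3). The ranges of the 3 SD timepoints overlapped with one another.

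In LD the level of *MtSOC1a* at ZT0 was 7.92, 9.24 and 6.12 TPM (7.76 ± 1.56 TPM, n = 3), which overlapped with SD throughout. At ZT2 in LD it was 10.1, 9.71 and 11.2 TPM (10.4 ± 0.790 TPM, n = 3), and every LD library lay above every SD library of that timepoint. At ZT4 in LD it was 12.3, 9.93 and 10.6 TPM (10.95 ± 1.20 TPM, n = 3), again above every SD library. Over all genes tested, the LD libraries all lay above the SD libraries in 21.9% at ZT0, 18.6% at ZT2 and 15.7% at ZT4, so the absence of overlap in *MtSOC1a* at ZT2 and ZT4 is shared with many genes. Ordered by mean, the groups ran from SD ZT4 through SD ZT2, LD ZT0, SD ZT0 and LD ZT2 to LD ZT4. The step from SD ZT0 to LD ZT2 was the only one between neighbours in this order at which the libraries did not overlap. The estimated counts behind these values were 76 to 213 per library, with a median of 115, and 82.8% of all quantified genes had a lower mean TPM than *MtSOC1a*.

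**Figure D1:**
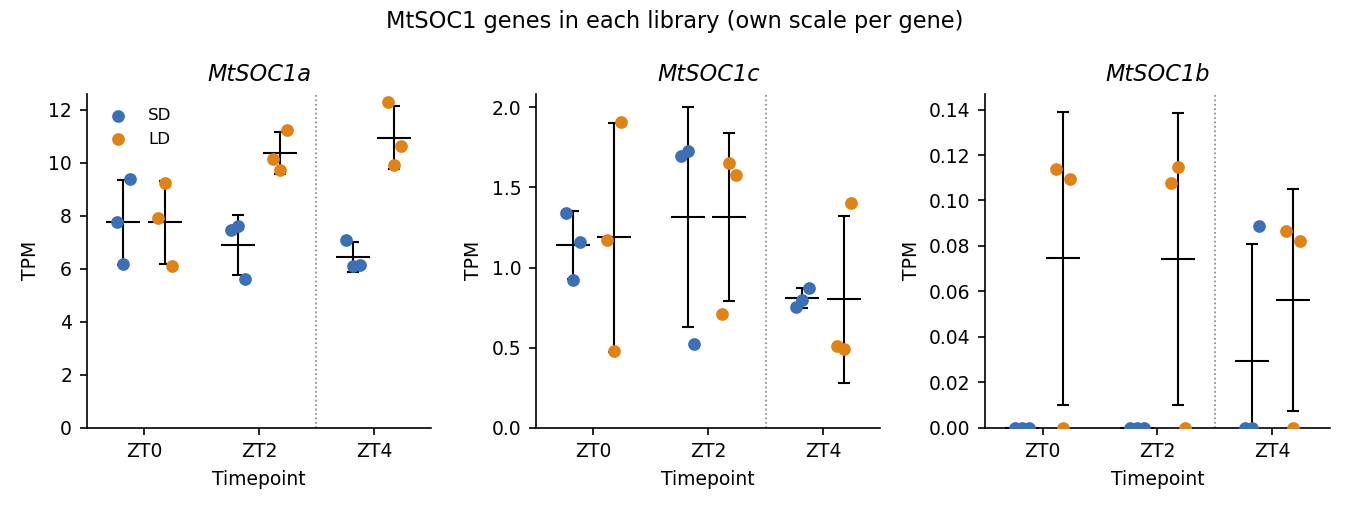
Level in TPM (y axis, from 0, with its own scale for each gene) of *MtSOC1a*, *MtSOC1c* and *MtSOC1b* at the 3 timepoints, with 1 point per library (blue SD, orange LD), a dash for the mean of 3 libraries, bars for 1 standard deviation and a dotted line between the experiments. *MtSOC1a* in LD lies at 9.71 to 11.2 TPM at ZT2 and 9.93 to 12.3 TPM at ZT4, above all SD libraries of those timepoints, while SD and LD overlap for *MtSOC1c* and *MtSOC1b* at every timepoint.

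The comparison of LD with SD at each timepoint asked where the photoperiod changed these genes. *MtSOC1a* rose in LD at ZT2 by 1.45-fold (95% confidence interval 1.15 to 1.81, log2 fold change 0.53 with a standard error of 0.16, adjusted p = 0.0136, by the quasi-likelihood test of edgeR) and at ZT4 by 1.75-fold (1.405 to 2.17, log2 fold change 0.81 with a standard error of 0.15, adjusted p = 0.00032). At ZT0 the log2 fold change was -0.11 (interval -0.44 to 0.22, adjusted p = 0.685), so a rise above 1.16-fold lay outside the interval at dawn. Among the 31363 genes tested, 15.5% rose in LD at ZT0, 10.3% at ZT2 and 12.4% at ZT4. The members called were thus 0 of 3 at ZT0 and 1 of 3, *MtSOC1a*, at each of ZT2 and ZT4. The call at ZT2 was lost without SD ZT2 replicate 3, the lowest of all 18 libraries (log2 fold change 0.39, adjusted p = 0.0876), and without LD ZT2 replicate 3 (0.46, adjusted p = 0.063), in the same direction, whereas the call at ZT4 held with any 1 library of that timepoint left out (adjusted p at most 0.00191).

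**Figure D2:**
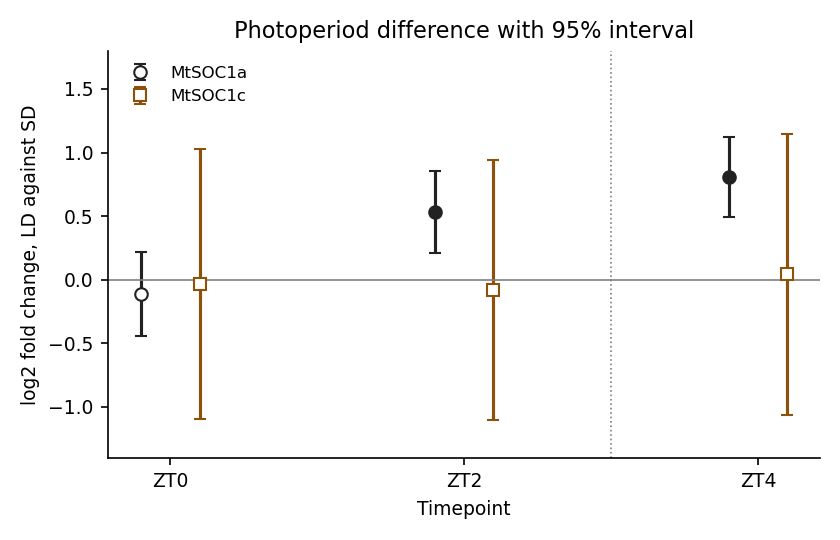
Fitted log2 fold change of LD against SD (y axis) at the 3 timepoints (x axis) for *MtSOC1a* (circles) and *MtSOC1c* (squares) from 3 libraries per group, with bars for the 95% confidence interval, filled symbols for an adjusted p under 0.05 and a dotted line between the experiments. *MtSOC1a* lies at -0.11 (ZT0), 0.53 (ZT2) and 0.81 (ZT4), and the bars of *MtSOC1c* are over 2 log2 units wide and span 0 at each timepoint.

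Whether the photoperiod effect on *MtSOC1a* changed with the timepoint was tested by the interaction of both over all 18 libraries, which passed the threshold (adjusted p = 0.00741), as it did for 30.4% of all genes tested. In experiment 1 alone, where kit and age were shared, the LD effect on the log2 scale was greater at ZT2 than at ZT0 by 0.68 (standard error 0.24, interval 0.17 to 1.20), and this did not pass the threshold after adjustment (adjusted p = 0.0621). There 18% of the 30111 genes tested passed. With 1 library left out in turn, this difference did not pass in 10 of 12 fits (adjusted p up to 0.163). It passed without LD ZT0 replicate 2 (adjusted p = 0.0177) and without SD ZT2 replicate 2 (adjusted p = 0.0479). Under 5 of 6 other alternatives it did not pass (adjusted p up to 0.104), and with a stricter filter on low counts it did (adjusted p = 0.0471). *MtSOC1c* passed neither interaction test (adjusted p = 1 for both).

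The first 2 h after dawn were compared within each photoperiod, where both timepoints came from experiment 1. In LD *MtSOC1a* rose from ZT0 to ZT2 by 1.44-fold (interval 1.15 to 1.79, log2 fold change 0.52 with a standard error of 0.15, adjusted p = 0.0124), with 24.7% of genes changing in either direction. This call was lost without LD ZT0 replicate 3 (log2 fold change 0.40, adjusted p = 0.068) or without LD ZT2 replicate 3 (0.43, adjusted p = 0.0717), in the same direction. In SD its log2 fold change over the same interval was -0.12 (adjusted p = 0.646), with 35.4% of genes changing. From ZT2 to ZT4, which is also a difference between experiments, the log2 fold change of *MtSOC1a* was 0.08 in LD (adjusted p = 0.747) and -0.19 in SD (adjusted p = 0.438), where 21.3% and 31.9% of genes changed. *MtSOC1c* passed none of these 4 tests, with log2 fold changes of 0.23 in LD and 0.28 in SD from ZT0 to ZT2 and of -0.64 in LD and -0.76 in SD from ZT2 to ZT4 (adjusted p = 0.312 or more). With 1 library left out the latter ranged from -1.35 to -0.38 in LD (adjusted p = 0.0932 or more) and from -1.14 to -0.47 in SD (adjusted p = 0.105 or more).

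*MtSOC1c* was present in every library at a level well below that of *MtSOC1a*. In SD it was 1.34, 0.92 and 1.16 TPM at ZT0, 1.70, 1.73 and 0.525 TPM at ZT2, and 0.755, 0.80 and 0.875 TPM at ZT4. In LD it was 1.17, 0.479 and 1.91 TPM at ZT0, 0.71, 1.65 and 1.58 TPM at ZT2, and 0.508, 0.491 and 1.41 TPM at ZT4. SD and LD overlapped at each timepoint. Group means ran from 0.801 TPM in LD ZT4 to 1.32 TPM in SD ZT2, and among neighbours in this order only SD ZT4 and SD ZT0 did not overlap.

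Whether the spread of *MtSOC1c* differed between groups was not tested. The standard deviation of *MtSOC1c* was lowest in SD ZT4, at 7.44% of the mean, and highest in LD ZT4, at 65.3%. The variance of its counts was 0.092 and 6.62 times their mean there. Sampling of reads alone gives a ratio of 1 on average, but with 3 libraries that ratio scatters widely. The counts were 6.05 to 27 per library, with a median of 15.5. LD differed from SD by log2 fold changes of -0.03 at ZT0, -0.08 at ZT2 and 0.04 at ZT4 (standard errors 0.51, 0.49 and 0.53, adjusted p = 1, 0.981 and 1). The fold had a 95% interval of 0.468 to 2.04 for ZT0, 0.466 to 1.92 for ZT2 and 0.48 to 2.21 for ZT4. A change of the size of that in *MtSOC1a* lay inside each of these intervals and was not detectable with these counts and this spread between replicates.

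*MtSOC1b* was at the limit of detection. It had 7 reads in all 18 libraries together and at most 1 read, or 0.115 TPM, in any of them. At ZT0 and ZT2 in SD no library had a read, and at ZT4 in SD replicate 3 had 1. In LD replicates 1 and 3 had 1 read each at ZT0 and at ZT4, and replicates 1 and 2 had 1 read each at ZT2. Reads were thus seen in 6 of 9 LD libraries and 1 of 9 SD libraries. A count of 0 allows up to 3 reads, which correspond to 0.254 to 0.346 TPM for this gene. For a library with 1 read the limit is higher and was not computed. As the mean of each group was below 0.254 TPM, no fold is given.

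The makeup of the family followed from these levels. *MtSOC1a* took 75.2 to 95.4% of the summed TPM of the 3 genes (median 87.7%), *MtSOC1c* 3.95 to 23.4% (median 11.9%) and *MtSOC1b* 0 to 1.35%. The ratio of *MtSOC1a* to *MtSOC1c* in TPM ran from 3.21 in LD ZT0 replicate 3 to 24.2 in LD ZT4 replicate 1, with a median of 7.35. These extremes both fell in LD, and within LD ZT0 replicate 2 was the highest for *MtSOC1a* and the lowest for *MtSOC1c*, and replicate 3 the reverse. In SD ZT2 replicate 3 was the lowest for both genes.

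**Figure D3:**
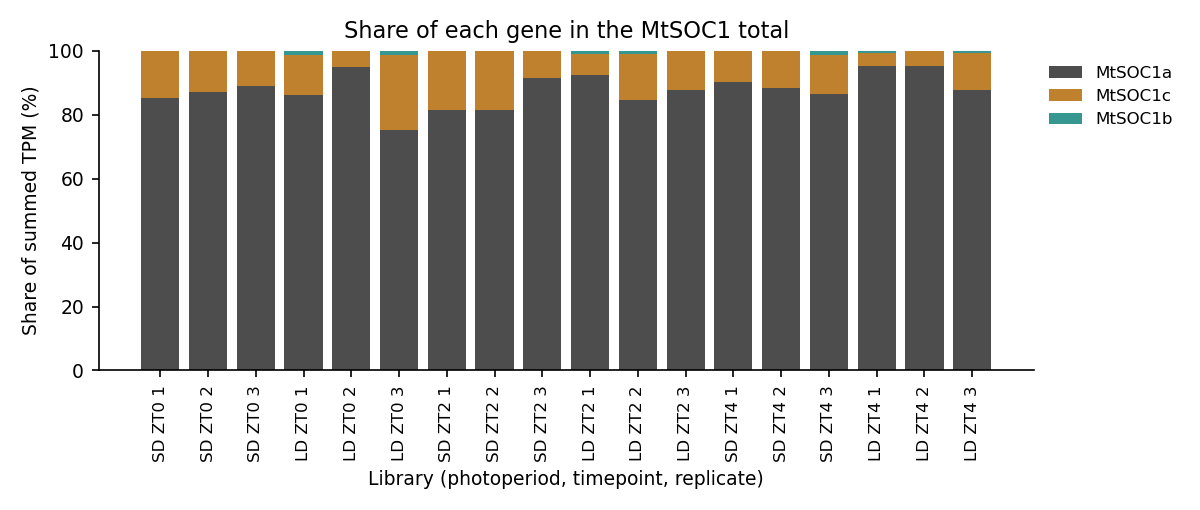
Share of *MtSOC1a* (grey), *MtSOC1c* (brown) and *MtSOC1b* (teal) in the summed TPM of the 3 genes (y axis, percent) in each of the 18 libraries (x axis). *MtSOC1a* makes up 75.2 to 95.4% in every library, and both the lowest and the highest share are LD libraries.

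Whether *MtSOC1a* and *MtSOC1c* answered photoperiod differently was tested on the log2 ratio of their TPM. LD exceeded SD in this ratio by 0.11 at ZT0, 0.52 at ZT2 and 0.91 at ZT4, with p = 0.8, 0.5 and 0.2 in two-sided exact permutation tests, which cannot go below 0.1 with 3 libraries against 3. Over all timepoints, with labels exchanged only within a timepoint, the difference was 0.51 (exact permutation p = 0.13, smallest possible 0.00025), and the Benjamini-Hochberg adjusted p over the 4 tests was 0.4 for the pooled value. A different response of the genes was therefore not shown.

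The counts of *MtSOC1a* and *MtSOC1c* were not independent of each other. In 10 of 18 libraries neither was a whole number while their sum was whole (within 0.001 of a read), so at least 1 read had been divided between them, and the number of divided reads is not given in the files. *MtSOC1b* never had a fraction. The effective lengths of *MtSOC1a* and *MtSOC1c* were alike, with a ratio of 0.949 to 1.03, so their TPM compare nearly as their counts do. When the 3 genes were summed before the fit, the family rose in LD by 1.37-fold at ZT2 (adjusted p = 0.0295) and 1.67-fold at ZT4 (adjusted p = 0.000664), against a log2 fold change of -0.09 at ZT0 (adjusted p = 0.743). The summed family also passed the interaction test (adjusted p = 0.0142).

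The paper gives *MtSOC1a* as a downstream target of *MtFTa1*, while a role in flowering time remains to be shown for the other *FT-like* genes. The *FT-like* genes were set beside the family as a list of 5, of which 4 had enough reads to be tested and *MtFTa3* had none. Of the 4, LD raised 2 at ZT0, 2 at ZT2 and 3 at ZT4 and lowered 1 at ZT4, beside 15.5%, 10.3%, 12.4% and 16.9% of all genes. No median is given, since *MtFTb1* and *MtFTb2* had no read in any SD library. *MtFTa1*, a promoter of flowering in Medicago, had 0 to 2 reads in each SD library and was higher in LD at all 3 timepoints (adjusted p = 6.65e-08, 4.12e-07 and 1.52e-09). Its level in LD was 6.32, 3.44 and 5.33 TPM at ZT0, 2.11, 3.29 and 3.41 TPM at ZT2, and 10.2, 7.61 and 5.52 TPM at ZT4. At ZT0 in LD *MtFTa1* was thus clear of every SD library while *MtSOC1a* was not.

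*MtFTb1* had no read at ZT0 in LD, reached 0.552, 0.492 and 0.678 TPM at ZT2 (5 to 7 reads) and 12.2, 14.2 and 13.4 TPM at ZT4 (adjusted p = 0.000431 and 4.86e-09 against SD). *MtFTb2*, its close relative, had 3 reads in 1 LD library at ZT2 and reached 6.79, 6.79 and 7.40 TPM at ZT4 (adjusted p = 7.7e-07). *MtSOC1a* and *MtFTb1* were called higher in LD at ZT2 and ZT4 and not at ZT0. The paper had already placed both genes in the same cluster of expression patterns from these data. From ZT2 to ZT4 in LD *MtFTb1* rose (adjusted p = 5.19e-08) and *MtSOC1a* had a log2 fold change of 0.08, a step that also crosses the experiments. *MtFTa2* rose in LD at ZT0 (log2 fold change 1.05, adjusted p = 0.0409) and fell at ZT4 (log2 fold change -1.02, adjusted p = 0.0205). At ZT4 its level was 1.69, 1.06 and 1.26 TPM in LD and 2.96, 2.87 and 2.57 TPM in SD.

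**Figure D4:**
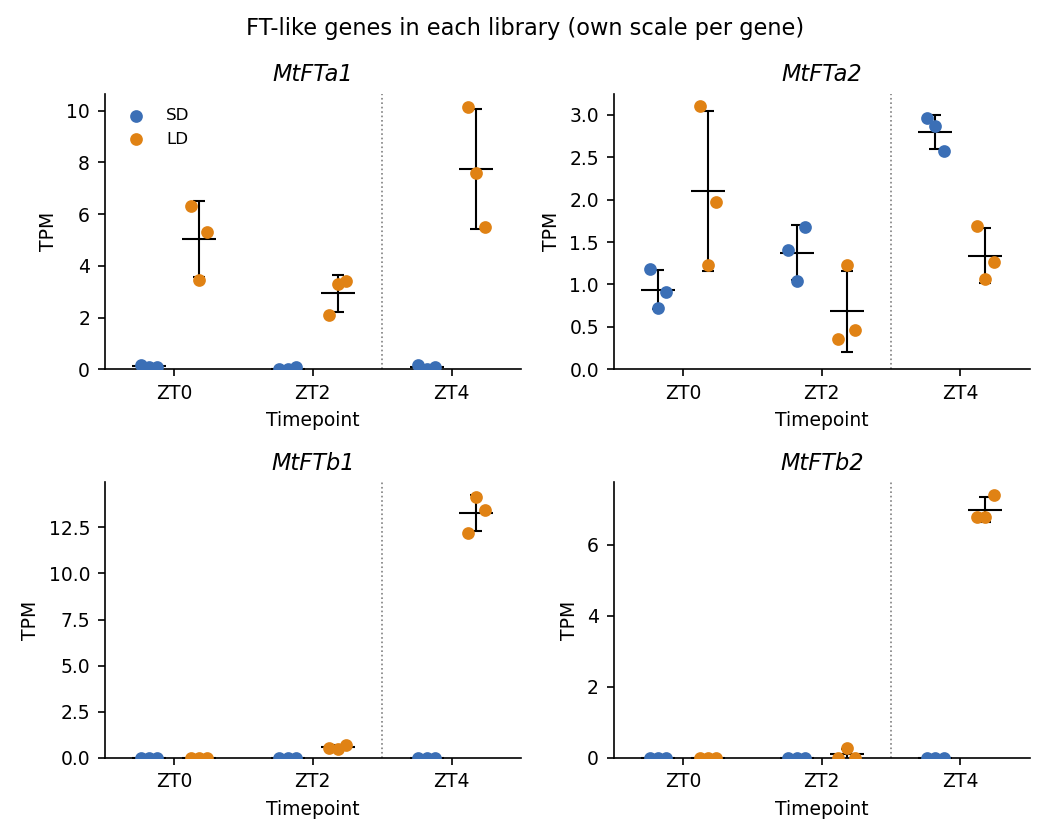
Level in TPM (y axis, from 0, with its own scale for each gene) of the 4 *FT-like* genes with reads, at the 3 timepoints, with 1 point per library (blue SD, orange LD), a dash for the mean of 3 libraries, bars for 1 standard deviation and a dotted line between the experiments. *MtFTa1* is high in LD at every timepoint, *MtFTb1* and *MtFTb2* reach 12.2 to 14.2 and 6.79 to 7.40 TPM at ZT4 in LD with no read in SD, and *MtFTa2* is lower in LD than in SD at ZT4.

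The *FUL-like* genes encode MADS-box proteins that, in *A. thaliana*, act with SOC1 in the transition to flowering at the apex, and all 3 were tested. LD raised 1 of 3 at ZT0, 0 at ZT2 and 1 at ZT4, beside 15.5%, 10.3% and 12.4% of all genes. No median is given for this list either, since *MtFULc* had at most 1 read in any library. The gene called at both timepoints was *MtFULb*, which was 3.32-fold higher at ZT0 (interval 1.47 to 7.49, adjusted p = 0.0166) and 2.47-fold higher at ZT4 (1.28 to 4.77, adjusted p = 0.0314). *MtFULb* had 3, 3 and 7 reads in SD at ZT0 against 21, 11 and 15 in LD. At ZT2 its SD libraries had 24, 27 and 26 reads and its LD libraries 37, 15 and 15, so that the groups overlapped. *MtFULa* had at most 11 reads in any library, and neither *MtFULa* nor *MtFULc* passed the test at any timepoint.

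The AP2 class holds 8 genes related to repressors of flowering in *A. thaliana*, where AP2 and TOE proteins delay flowering and TEM proteins repress *FT*. All 8 were tested. LD raised 4 and lowered 3 at ZT0, beside 15.5% and 14.2% of all genes. At ZT2 LD lowered 3 and raised none, beside 10.3% lowered over all genes. At ZT4 LD lowered 6 and raised none, beside 16.9% lowered over all genes. The median log2 fold change of the list was 0.26, -0.25 and -0.37 at the 3 timepoints, beside 0, 0 and -0.04 over all genes.

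The genes of the class differed in when they moved. *MtAP2a* was higher in LD at ZT0 (10.3 ± 2.39 TPM in SD and 17.0 ± 1.88 TPM in LD, n = 3), lower at ZT2 (27.9 ± 1.19 and 19.0 ± 1.42 TPM) and lower at ZT4 (17.0 ± 0.924 and 13.5 ± 1.67 TPM), with adjusted p = 4.43e-05, 2.81e-05 and 0.0281. *MtTEM1* was lower in LD at ZT0 (134 ± 17.3 TPM in SD and 51.6 ± 14.4 TPM in LD) and at ZT4 (16.0 ± 0.895 and 5.33 ± 1.02 TPM), with adjusted p = 1.3e-07 and 3.11e-07, while at ZT2 its level was 20.5 ± 1.68 TPM in SD and 19.1 ± 1.16 TPM in LD (adjusted p = 0.586). *MtTOE2* was lower in LD at ZT0 and ZT2 (log2 fold changes -1.55 and -0.66, adjusted p = 5.3e-09 and 0.000207), and at ZT4 its log2 fold change was 0.02 (adjusted p = 0.981). *MtTOE1b* was lower in LD at ZT2 and ZT4 (log2 fold changes -0.64 and -0.27, adjusted p = 4.26e-06 and 0.0155).

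**Figure D5:**
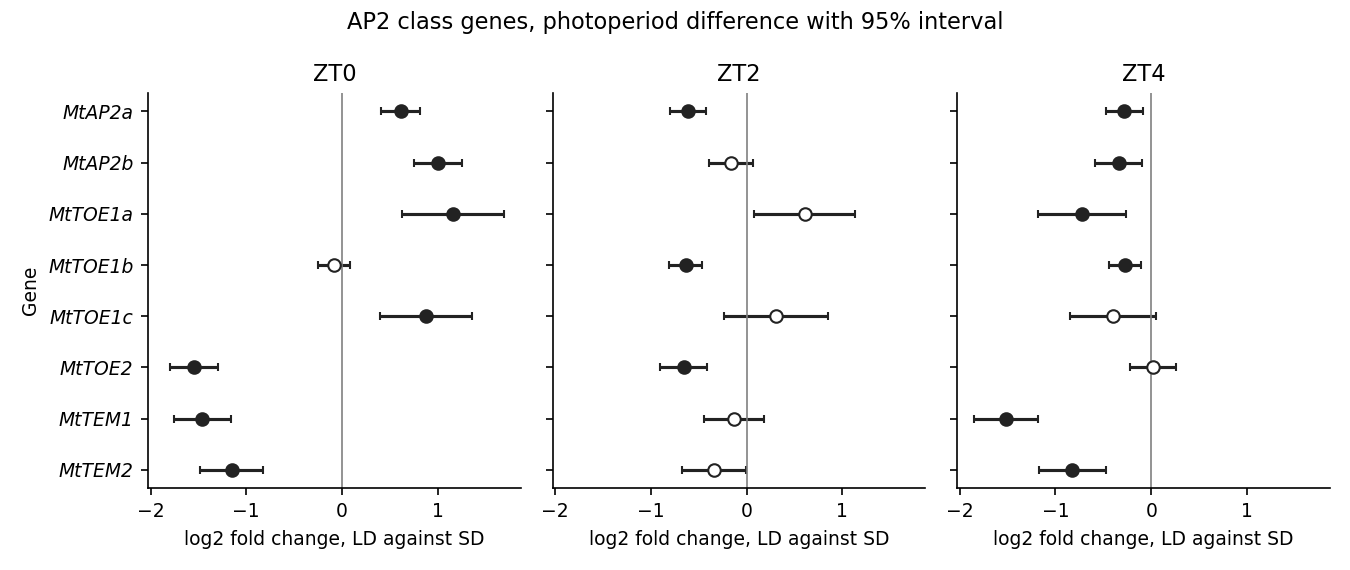
Fitted log2 fold change of LD against SD (x axis) for the 8 AP2 class genes (y axis) at ZT0, ZT2 and ZT4 (panels), from 3 libraries per group, with bars for the 95% confidence interval and filled points for an adjusted p under 0.05. At ZT0 filled points lie on both sides of 0 (4 higher and 3 lower), and at ZT2 and ZT4 all filled points (3 and 6) are lower in LD.

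The loci next to the *MtSOC1* genes were also read out, 4 on each side in the order of locus identifiers. Of the 8 neighbours of *MtSOC1a*, 2 had no read and 6 were tested, of which LD raised 2 and lowered 1 at ZT0, raised 1 and lowered 1 at ZT2 and raised 1 and lowered 1 at ZT4. Over all genes LD raised 15.5% and lowered 14.2% at ZT0, 10.3% and 10.3% at ZT2, and 12.4% and 16.9% at ZT4, and nothing is read from counts of 1 or 2 in 6 beside those shares. *Medtr7g075850*, which the study's gene descriptions give as a MADS-box transcription factor, lies 2 loci from *MtSOC1a* and had 79 reads in all libraries together. It had 1, 6 and 2 reads in SD at ZT0 and 12, 13 and 8 in LD, a 3.32-fold rise (interval 1.30 to 8.46, adjusted p = 0.0377), and it passed at neither ZT2 (adjusted p = 0.369) nor ZT4 (adjusted p = 0.28). At ZT2 it had 0, 4 and 2 reads in SD and 4, 4 and 5 in LD (means 0.118 and 0.264 TPM). At ZT4 it had 2, 1 and 2 reads in SD and 4, 2 and 7 in LD (means 0.083 and 0.200 TPM). Its mean was thus higher in LD there too, and these reads are too few to set its timing apart from that of *MtSOC1a*. Around *MtSOC1b* and *MtSOC1c*, 6 of 8 neighbours were tested, of which LD raised 0 and lowered 1 at ZT0, raised 1 and lowered 1 at ZT2 and raised 0 and lowered 1 at ZT4, beside the same shares over all genes.

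The genes with the pattern most like that of *MtSOC1a* were sought by Pearson's correlation of log2(TPM + 0.5) across the 18 libraries, among 18268 genes with a mean of 1 TPM or more. These libraries share their photoperiod groups, their experiments and their depth, so that the values describe likeness only. The 5 highest correlations were 0.870 to 0.884, led by *Medtr4g054960* (r = 0.884) and *Medtr0489s0020* (r = 0.876), and the lowest belonged to *Medtr1g101240* (r = -0.824) and *Medtr7g015390* (r = -0.795). *Medtr4g054960* had group means of 31.6 to 34.8 TPM in the 3 SD groups and LD ZT0, and of 42.3 and 43.7 TPM in LD at ZT2 and ZT4. *Medtr7g015390* went the other way, with 9.87, 7.46 and 9.02 TPM in SD at ZT0, ZT2 and ZT4 and 8.40, 4.48 and 3.46 TPM in LD. Over the 12 libraries of experiment 1 alone the 5 genes correlated with *MtSOC1a* at 0.805 to 0.841, and 0 of them stayed among the 5 highest. For *MtSOC1c* the highest correlation was 0.660, over counts too few to read a pattern from.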

How the data were processed

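RNA-Seq was analysed in 18 leaf libraries. The authors trimmed reads with BBDuk 37.54 (Phred score 20, at least 36 bases) and quantified them with Salmon 0.8.2 against the Mt4.0v2 transcripts. Estimated counts and TPM were deposited per gene, which the authors summed from transcripts with tximport 1.4.0, with no scaling or filter of the counts. Gene names follow the study.

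Estimated counts were rounded, genes with a summed count above 1 were kept, and counts were scaled by TMM and fitted in edgeR 4.0.16 (R 4.3.3, quasi-likelihood) with 6 group means over 18 libraries. Benjamini-Hochberg adjustment covered all genes and the 3 timepoints, or both photoperiods for time contrasts, with a threshold of 0.05. The interaction of photoperiod and timepoint was tested over all libraries and in experiment 1. Only the ZT4 contrast and the interaction over all libraries were tried on simulated counts, with changes placed in LD ZT4. Genes at the low counts of *MtSOC1c* were given no change there, and the other tests were not tried in this way.

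Levels and the ratio test used TPM, the latter with a pseudocount of 0.1. It was added after the values were seen. The genes named are the *MtSOC1* genes, the *FT-like*, *FUL-like* and AP2 class lists, 4 loci on each side, and the 5 most and 3 least alike, of which 2 each are printed. Members and lists were chosen with earlier results of these data known. *Medtr7g075850* was singled out among the neighbours for its description, after its values were seen.

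Same-numbered SD and LD libraries come from different plants. Their deviations from group means correlated at 0.105 to 0.226 at ZT2, over 0.1 in each of 3 pairs, and at -0.255 to 0.188 at ZT0 and -0.0944 to 0.028 at ZT4. The fit reported has no replicate term. An alternative was the replicate number as a block within each timepoint, or within each photoperiod for time contrasts. The others were DESeq2 1.42.0, its size factors in edgeR, filterByExpr, no filter, a length offset, separate fits and adjustments, limma 3.58.1 on TPM, and each library left out.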

Additional observations from a re-analysis of the deposited data

Results flagged for a closer look

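The effect of photoperiod differed between timepoints in 11 genes of the *MtSOC1* family and the *FT-like*, *FUL-like* and AP2 class lists, by the interaction test over all 18 libraries in edgeR. Neighbouring loci, and genes picked for their likeness to *MtSOC1a*, are not in this count. Among the *MtSOC1* genes this was *MtSOC1a* alone (adjusted p = 0.00741), whose LD libraries all lay above SD at ZT2 and ZT4 and overlapped with SD at ZT0. Of the other lists it was *MtFTa2* (adjusted p = 0.00371), which rose in LD at ZT0 and fell at ZT4, and *MtFULb* (adjusted p = 0.0297), which rose at ZT0 and ZT4. In the AP2 class it was each of the 8 genes, with adjusted p = 1.04e-06 for *MtAP2a*, 3.16e-06 for *MtAP2b*, 0.000363 for *MtTOE1a*, 0.00241 for *MtTOE1b*, 0.0111 for *MtTOE1c*, 1.28e-06 for *MtTOE2*, 2.66e-05 for *MtTEM1* and 0.0265 for *MtTEM2*. Over all genes tested 30.4% passed. *MtFTa2* was the only 1 of the 4 *FT-like* genes tested to pass. *MtFTb1* and *MtFTb2* had no read in SD at any timepoint or in LD at ZT0. Their photoperiod effect could not be set against a measured SD level, so this test does not show that it was alike at each timepoint. In the paper's likelihood ratio test of the interaction *MtSOC1a* and *MtFTb1* passed and *MtFTb2* did not.

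Within experiment 1, between ZT0 and ZT2, 8 of the genes that passed over all libraries also passed, and *MtSOC1a*, *MtTOE1a* and *MtTOE1c* did not. The adjusted p was 0.0277 for *MtFTa2*, 0.0233 for *MtFULb*, 1.56e-05 for *MtAP2a*, 0.000239 for *MtAP2b*, 0.00467 for *MtTOE1b*, 0.00152 for *MtTOE2*, 0.000171 for *MtTEM1* and 0.000798 for *MtTEM2*. Here 18% of all genes passed.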

How the results depend on the processing

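*MtSOC1a* stayed higher in LD at ZT2 and ZT4 and past the threshold under all 12 alternatives other than leaving out libraries, with adjusted p = 0.00968 to 0.0265 at ZT2 and 9.23e-06 to 0.00489 at ZT4, and its interaction over all libraries stayed past it under 7 (0.0014 to 0.0416). No count of genes called moved by over 1.5 times. With the replicate block the log2 fold change of *MtSOC1a* was 0.54 at ZT2 (adjusted p = 0.0265) and 0.81 at ZT4 (adjusted p = 0.00129), and its interaction had an adjusted p of 0.0182. The replicate block changed no call of the *MtSOC1* genes, though the log2 fold change of *MtSOC1c* turned to -0.026 at ZT4 and its interaction in experiment 1 to 0.0903. With filterByExpr the interaction of *MtSOC1a* in experiment 1 (0.68) passed, and under the other 5 alternatives it did not (adjusted p up to 0.104).

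With each library left out in turn, the log2 fold change of *MtSOC1a* was 0.39 to 0.66 at ZT2, -0.26 to 0.0085 at ZT0, 0.40 to 0.67 from ZT0 to ZT2 in LD, -0.26 to 0.0199 in SD, and 0.54 to 0.83 for the interaction in experiment 1. That of *MtSOC1c* was -0.62 to 0.34 at ZT0, -0.46 to 0.25 at ZT2, -0.67 to 0.30 at ZT4, -0.036 to 0.66 from ZT0 to ZT2 in SD, -0.14 to 0.81 in LD and -0.39 to 0.56 for the interaction in experiment 1, so 1 library set its sign.

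With limma on TPM the signs of values near 0 turned. *MtSOC1a* at ZT0 was at 0.00026 with a pseudocount of 0.5 (with or without a filter), 0.00028 with 0.1 and 0.00023 with 1. *MtSOC1c* was at 0.037, 0.073 and 0.021 at ZT2 and at -0.079, -0.16 and -0.044 at ZT4 in the same order. The cause was not tested. Depth limits *MtSOC1b*, with 7 reads in all. *MtSOC1c* had at most 27 in a library, and the variance of its counts between replicates was up to 6.72 times their mean.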
